A study of Sus scrofa with 59 samples.

Results

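Muscles of 59 pigs were divided by the level of OCA2, whose array signal fell into 2 separate sets of animals. The members of each set were chosen by that signal alone. The 13 muscles with a deposited value under 7.0 on the log2 scale for the OCA2 probe set are called OCA2-low, and the 46 muscles at or above 7.0 are called OCA2-high, so that all 59 arrays of the series were used. The muscle was the longissimus dorsi, the long muscle of the back. All pigs, OCA2-low and OCA2-high alike, came from a cross given in the labels as LD/LW x Duroc, were 170 days old and had free access to feed, and each gave 1 Affymetrix array. The labels mention 33 carcass and meat traits, whose values were not analysed here, and the sources used here give no sex, sire, coat colour or array batch of a pig. Nothing in the labels pairs or groups the pigs, so every p-value treats the pigs as independent animals. Where pigs shared a sire or an array batch, this could not be taken into account, and p-values may be too small.

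OCA2 encodes a transmembrane protein of the melanosome, the organelle in which pigment cells make melanin, where it takes part in chloride transport and in keeping the lumen at a pH that allows tyrosinase to work. Loss of the gene causes a form of oculocutaneous albinism in people and the pink-eyed dilution coat in mice. The gene is best known from melanocytes and the retinal pigment epithelium, and skeletal muscle fibres contain no melanosomes.

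OCA2-low muscles had OCA2 values between 3.88 and 5.79 log2 with a median of 4.60, against values between 8.08 and 10.50 with a median of 9.28 in OCA2-high muscles. The means were 4.70 ± 0.49 log2 in OCA2-low muscles (SD, n = 13) and 9.30 ± 0.55 in OCA2-high muscles (SD, n = 46). Since these values chose the groups, they are a description and were not tested. The difference of -4.60 log2, OCA2-low minus OCA2-high, corresponds to 24.2-fold on this scale. A gap of 2.29 log2 separated both sets, while no other pair of neighbouring values lay more than 0.64 log2 apart. Just under the threshold lay pigs at 5.15 and 5.79 log2, and just above it pigs at 8.08, 8.22 and 8.40 log2. OCA2-low pigs made up 22.0% of the animals (95% Clopper-Pearson interval 12.3 to 34.7%, for counting error only). Among all probe sets, the mean OCA2 signal of OCA2-low muscles exceeded 25.2% of probe sets, and that of OCA2-high muscles exceeded 87.6%. In OCA2-low muscles the gene thus sat among the dim probe sets, where differences can be compressed, and in OCA2-high muscles it sat among the bright ones. Only 1 probe set of the array is annotated to OCA2, so no second probe set could be set beside it.

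**Figure D1:**
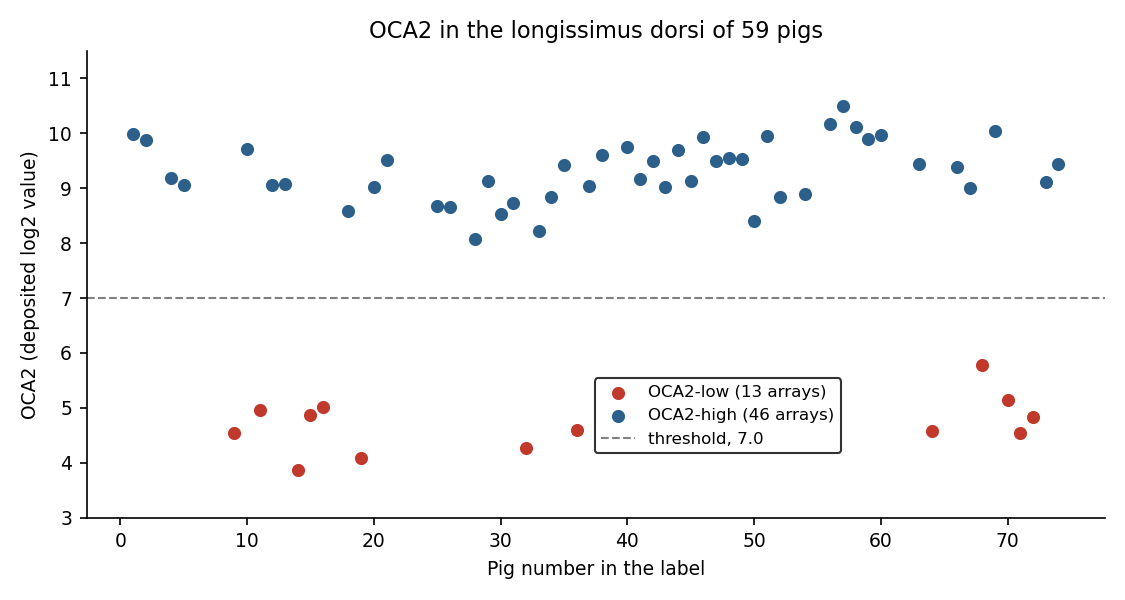
Deposited log2 value of OCA2 (vertical axis) in each of 59 pigs, placed by the number in the array's label (horizontal axis), with OCA2-low pigs in red, OCA2-high pigs in blue and the threshold as a dashed line. No pig lies between 5.79 and 8.08 log2, and most red points lie at numbers 9 to 19 and 64 to 72.

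The OCA2-low pigs were not spread evenly over the animal numbers in the labels. They carried the numbers 9, 11, 14, 15, 16, 19, 32, 36, 64, 68, 70, 71 and 72. OCA2-low pigs were 6 of the 10 pigs numbered 9 to 19, 5 of the 8 pigs numbered 64 to 72 and 2 of the other 41 pigs. The ranges were drawn after the values had been seen and were not tested. The sources used here do not say what the numbers mark. As an alternative chosen after the data had been seen, the decade of the pig number (1 to 9, 10 to 19 and so on) was entered in the fit as a block, and its values are given beside several of the results.

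No tested measure of the arrays themselves separated the groups. Array medians ran from 6.23 to 6.30 log2 over all pigs, and Pearson correlations of 2 arrays over all probe sets from 0.969 to 0.995. Array quality and balance were tested with 7 measures, by two-sided permutation tests with 100000 resamples, and none passed Benjamini-Hochberg adjustment over the 7. The smallest p belonged to the second principal component of expression, with means of 5.58 in OCA2-low and -1.58 in OCA2-high muscles (p = 0.0208, adjusted p = 0.145). The log2 signal of the actin control at its 3' end minus its 5' end, a sign of RNA quality, averaged 3.45 ± 0.17 in OCA2-low and 3.33 ± 0.30 in OCA2-high muscles (SD, n = 13 and 46, adjusted permutation p = 0.537). The mean level of 8 measured skeletal muscle markers was 14.30 log2 in OCA2-low muscles and 14.30 in OCA2-high muscles, near the top of the range of the array.

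Few probe sets differed along with OCA2. Of 11999 probe sets with a mean of at least 6.27 log2, which covered 4927 named genes, 2 differed between OCA2-low and OCA2-high muscles at an adjusted p under 0.05 in limma (0.0167% of those tested). Both were lower in OCA2-low muscles (0.0167%), and 0 were higher (0%). At an unadjusted p under 0.05 there were 971 probe sets (8.09%), of which 442 were lower (3.68%) and 529 higher (4.41%) in OCA2-low muscles. Not 1 of the 11999 probe sets separated the groups without overlap, as OCA2 itself does, and the same held over all 23998 probe sets that are neither controls nor OCA2.

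The 95% intervals, which are not adjusted for the number of probe sets, show how precisely each difference was measured. To pass the adjusted threshold, a difference had to be larger than the half-width of its interval. The median absolute difference was 0.05 log2 and the median half-width of the 95% interval was 0.13 log2. The interval lay inside ±0.5 log2 for 96.0% of probe sets and inside ±1 log2 for 99.7%. An absolute difference of at least 0.5 log2 was measured for 36 probe sets and of at least 1 log2 for 6 probe sets. None of these larger differences passed the adjusted threshold. Among them were the interferon-induced genes CXCL9 and GBP1 and the Y-linked gene EIF1AY, whose values vary widely within both groups. The number of arrays, 13 and 46, limits the precision of every value.

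**Figure D2:**
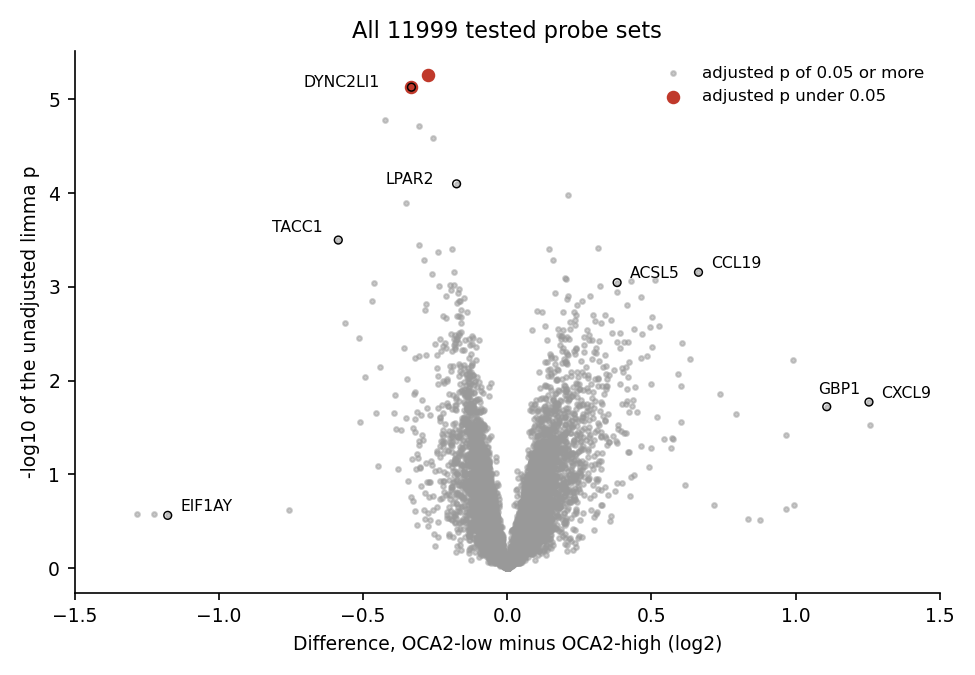
Each point is 1 of 11999 probe sets, with the difference OCA2-low minus OCA2-high in log2 (horizontal axis) against -log10 of the unadjusted limma p (vertical axis). The 2 probe sets with an adjusted p under 0.05 (red) lie at -0.33 and -0.27 log2, while CXCL9 at 1.25 and EIF1AY at -1.18 lie far out with larger p-values.

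DYNC2LI1, a light intermediate chain of dynein-2, the motor that carries cargo back along cilia, was the 1 named gene that passed the test. Its values in OCA2-low muscles ran from 8.14 to 8.70 log2 with a median of 8.35, and in OCA2-high muscles from 8.20 to 9.12 with a median of 8.72. The ranges overlap, but all 13 OCA2-low muscles lay below the median of the OCA2-high muscles. The means were 8.38 ± 0.18 log2 in OCA2-low muscles and 8.71 ± 0.23 in OCA2-high muscles (SD, n = 13 and 46). DYNC2LI1 fell by 0.33 log2 (SE 0.07, 95% interval -0.47 to -0.20, limma adjusted p = 0.0444), which is 1.26-fold. A second, dimmer probe set of the gene averaged 6.69 ± 0.20 log2 in OCA2-low and 6.99 ± 0.21 in OCA2-high muscles (SD, n = 13 and 46), with a difference of -0.30 log2 and a limma adjusted p of 0.0582. Both probe sets thus gave differences of similar size, and their values correlated at r = 0.718 over the 59 pigs, which share their libraries.

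The DYNC2LI1 call lay close to the threshold. It was lost when any 1 of 35 pigs was left out, among them the OCA2-low pigs 9, 11, 14, 15, 16, 19, 64, 68 and 72, while the difference stayed between -0.36 and -0.31 log2. With the decade of the pig number as a block, the difference was -0.17 log2 (limma adjusted p = 0.982). Within pigs numbered 9 to 19, DYNC2LI1 averaged 8.27 ± 0.10 log2 in 6 OCA2-low and 8.46 ± 0.05 in 4 OCA2-high muscles (SD). Within pigs numbered 64 to 72 it averaged 8.39 ± 0.18 log2 in 5 OCA2-low and 8.48 ± 0.11 in 3 OCA2-high muscles (SD). Among the other pigs it averaged 8.65 ± 0.07 log2 in 2 OCA2-low and 8.75 ± 0.22 in 39 OCA2-high muscles (SD). OCA2-high pigs of both number ranges thus had less DYNC2LI1 signal on average than OCA2-high pigs outside them, and within every range the OCA2-low mean was the smaller one.

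The second probe set that passed has no gene symbol in the annotation used here. Its values ran from 12.17 to 12.77 log2 with a median of 12.39 in OCA2-low muscles, and from 12.28 to 13.08 with a median of 12.70 in OCA2-high muscles. In 12 of 13 OCA2-low muscles it lay below the OCA2-high median. The means were 12.42 ± 0.17 log2 in OCA2-low and 12.69 ± 0.18 in OCA2-high muscles (SD, n = 13 and 46), and it fell by 0.27 log2 (SE 0.06, limma adjusted p = 0.0444). This call was lost when any 1 of 30 pigs was left out, among them the OCA2-low pigs 9, 11, 14, 15, 16, 19, 64 and 72, with differences between -0.30 and -0.25 log2. With the decade of the pig number as a block the difference was -0.23 log2 (limma adjusted p = 0.982).

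None of the 19 genes with the next smallest p-values passed the test. The smallest adjusted p among them was 0.159, for LPAR2, a receptor for lysophosphatidic acid. LPAR2 ran from 6.20 to 6.74 log2 with a median of 6.46 in OCA2-low muscles, and its median was 6.64 in OCA2-high muscles, a mean difference of -0.18 log2. A second LPAR2 probe set, too dim for the filter, had a difference of -0.07 log2, and its r with the first was 0.135 over the 59 pigs. LRIG1, which restrains growth factor receptors of the EGF receptor family, averaged 9.52 ± 0.34 log2 in OCA2-low and 9.81 ± 0.22 in OCA2-high muscles (SD, n = 13 and 46). PPARD, a nuclear receptor that drives genes of fatty acid oxidation, averaged 7.58 ± 0.15 log2 in OCA2-low and 7.76 ± 0.16 in OCA2-high muscles (SD, n = 13 and 46). A second tested PPARD probe set had a difference of -0.12 log2 (unadjusted p = 0.244), and its r with the first was -0.0990 over the 59 pigs. The membrane skeleton protein ADD1 had a difference of 0.14 log2, the microtubule kinase MARK1 of 0.20 and the Cdc42 effector CDC42EP3 of 0.32.

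TACC1, a coiled-coil protein of the centrosome and microtubules, lies on the same chromosome as OCA2 in the reference annotation and had the widest difference of these genes on the lower side. It averaged 7.24 ± 0.73 log2 in OCA2-low and 7.83 ± 0.42 in OCA2-high muscles (SD, n = 13 and 46), a difference of -0.59 log2 with a limma adjusted p of 0.360. Its mean rests in part on 2 animals, since pig 32 had 5.50 log2 and pig 36 had 5.73 log2, below every OCA2-high muscle, whose lowest value was 7.06. The other 11 OCA2-low muscles lay between 7.33 and 7.73 log2. Without pigs 32 and 36 the difference was -0.29 log2, a value chosen after the data had been seen. These 2 pigs are the OCA2-low animals whose numbers lie outside both ranges named above. Within pigs numbered 9 to 19, TACC1 averaged 7.54 ± 0.13 log2 in 6 OCA2-low and 7.53 ± 0.27 in 4 OCA2-high muscles (SD). Within pigs numbered 64 to 72 it averaged 7.53 ± 0.17 log2 in 5 OCA2-low and 7.71 ± 0.28 in 3 OCA2-high muscles (SD). Among the other pigs, TACC1 averaged 5.62 ± 0.16 log2 in 2 OCA2-low and 7.87 ± 0.43 in 39 OCA2-high muscles (SD), so the groups lay far apart there and close together in the first range. With the decade of the pig number as a block the TACC1 difference was -0.72 log2 (limma adjusted p = 0.0864).

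Of the other genes, MCAT, which loads malonyl groups for mitochondrial fatty acid synthesis, averaged 6.63 ± 0.14 log2 in OCA2-low and 6.94 ± 0.28 in OCA2-high muscles (SD, n = 13 and 46), and all 13 OCA2-low values lay below the OCA2-high median. AUH, a mitochondrial hydratase of leucine breakdown, had a difference of -0.26 log2, and a second probe set of it had -0.20. ACSL5, which activates long-chain fatty acids with coenzyme A, ran from 5.68 to 7.39 log2 with a median of 6.55 in OCA2-low muscles, and from 5.60 to 6.96 with a median of 6.24 in OCA2-high muscles, a mean difference of 0.38 log2 (limma adjusted p = 0.388). The other ACSL5 probe sets were too dim for the filter and had differences of 0.15 and 0.52 log2. Without the filter, the probe set with 0.52 log2 had a limma adjusted p of 0.0540. CPQ, a secreted carboxypeptidase, had a difference of 0.38 log2.

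CCL19, a chemokine that attracts T cells and dendritic cells, ran from 6.24 to 9.02 log2 with a median of 7.22 in OCA2-low muscles, and from 5.80 to 8.27 with a median of 6.78 in OCA2-high muscles. Its mean difference was 0.66 log2 (SE 0.19, limma adjusted p = 0.388), and 11 of 13 OCA2-low muscles lay above the OCA2-high median. The neutrophil protease PRTN3 had a difference of -0.17 log2 and the pig chemokine AMCF-II of -0.19. The tested AMCF-II probe set averaged 11.10 log2 in OCA2-low and 11.30 in OCA2-high muscles. Its further 2 probe sets, too dim for the filter, averaged 2.93 and 3.08 log2 in OCA2-low and 2.87 and 2.92 in OCA2-high muscles. They went the other way with 0.06 and 0.16 log2, and their r with the brighter AMCF-II probe set was -0.169 and -0.266 over the 59 pigs. Which of them measures the gene was not tested. The remaining genes were the nucleotide sugar transporter family member SLC35C2 with 0.16 log2, TTC39C with 0.26, the histone gene regulator HINFP with -0.17, the RNA cyclase RTCA with -0.17 and the ribosomal RNA methyltransferase METTL5 with 0.24. METTL5 also lies on the chromosome of OCA2. Dim second probe sets that were not tested had the opposite sign for SLC35C2 (-0.08 log2, r = -0.0515 with the tested one) and for TTC39C (-0.06 log2, r = -0.0940), and the one of METTL5 had 0.02 log2. Adjusted p-values of these 19 genes lay between 0.159 and 0.388 in limma.

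**Figure D3:**
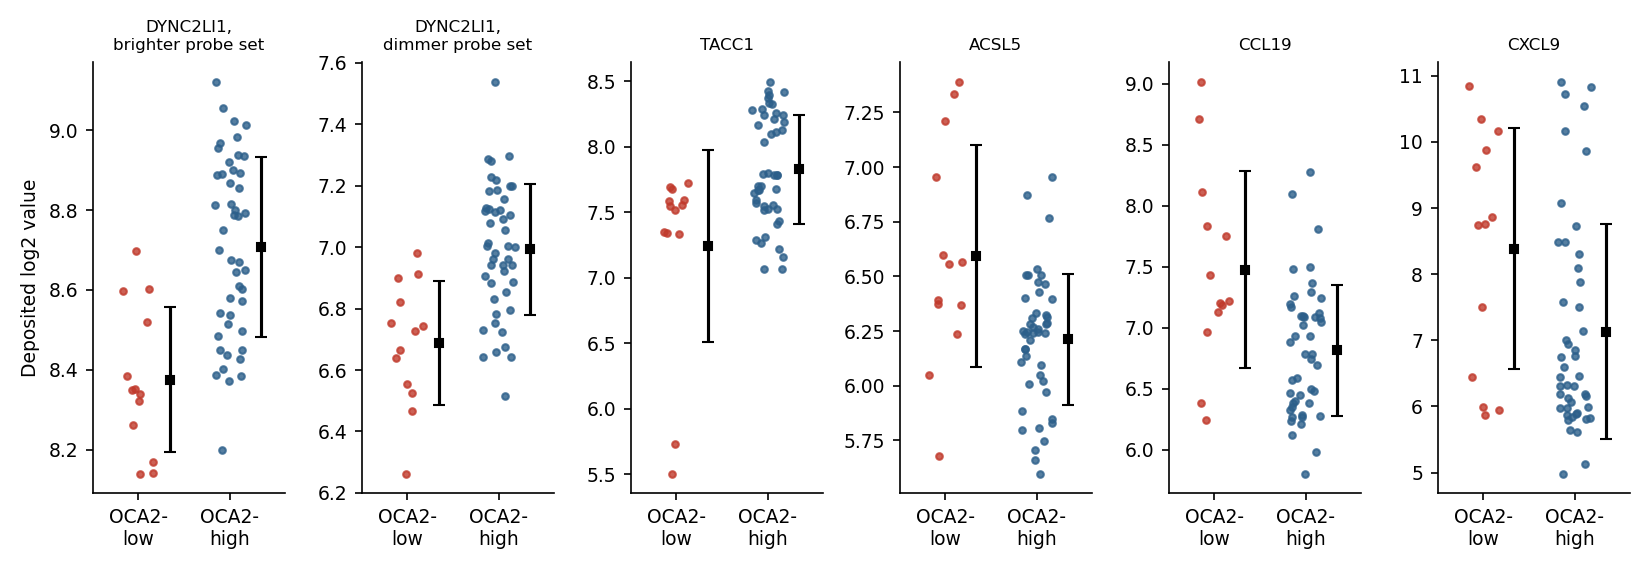
Deposited log2 values (vertical axes, a scale of its own in each panel) of both DYNC2LI1 probe sets and of TACC1, ACSL5, CCL19 and CXCL9 in 13 OCA2-low (red) and 46 OCA2-high (blue) muscles, with 1 point per pig and the mean ± SD in black. The groups overlap in every panel, and 2 OCA2-low pigs lie far below all others for TACC1.

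No measured gene near OCA2 on the chromosome passed the test. Of the 10 annotated genes on each side in the Sscrofa11.1 annotation, 4 were on the array, and all were tested. All 4 lie on the same side of OCA2, between the 4th and the 10th place from it. On the other side the nearest gene on the array was POLR2D, at the 13th place. The genes directly beside OCA2 were therefore not measured. LEPROTL1, a small membrane protein related to the leptin receptor overlapping transcript, averaged 8.57 ± 0.43 log2 in OCA2-low and 8.31 ± 0.32 in OCA2-high muscles (SD, n = 13 and 46), a difference of 0.26 log2 with an unadjusted p of 0.0181 and a limma adjusted p of 0.530. Its median was 8.40 log2 in OCA2-low and 8.24 in OCA2-high muscles. The differences were 0.02 log2 for DCTN6, a subunit of dynactin, 0.02 for SARAF, a regulator of calcium entry, and 0.19 for PPP1R3B, which targets a phosphatase to glycogen. All 4 adjusted p-values were 0.530 or more.

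A wider window was added after the data had been seen. Among the 25 genes on each side, 10 genes with 12 probe sets were tested, and 2 probe sets had an unadjusted p under 0.05, LEPROTL1 and the phosphatase subunit PPP2CB with a difference of -0.12 log2. Over the whole chromosome of OCA2, 24 of 222 tested probe sets had an unadjusted p under 0.05 (10.8%, against 8.09% of all tested), 15 of them lower and 9 higher in OCA2-low muscles, and 0 passed the adjusted threshold. Their median difference was -0.01 log2. UBE3A and ATP10A, which lie near OCA2 in other mammals, had differences of -0.00911 and -0.00243 log2. Neither is placed on the chromosome of OCA2 in the pig annotation used here, so they say nothing about its neighbourhood.

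No tested gene of the pigment cell passed the test, and OCA2 itself was not tested. Of 28 listed pigmentation genes, 18 were on the array and 6 were bright enough to be tested, and 0 passed the test, beside 0.0167% of all probe sets tested, from which nothing can be read for 6 genes. MITF, the transcription factor of the melanocyte lineage that muscle also expresses, ran from 7.49 to 9.00 log2 with a median of 8.26 in OCA2-low muscles, and its median was 8.33 in OCA2-high muscles, a mean difference of -0.12 log2. The endothelin receptor EDNRB had a difference of -0.06 log2, the coat colour gene ATRN of -0.07, the melanosome and macrophage glycoprotein GPNMB of -0.13, the lysosome trafficking gene LYST of 0.11 and the adaptor subunit AP3B1 of 0.03. The median over these 6 was -0.07 log2, beside 0.00 over all 4927 genes tested.

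The melanocyte genes TYR, TYRP1, SLC45A2 and SOX10 were dim on average in both groups, while MITF was not. DCT, PMEL and MLANA, which also mark melanocytes, were not among the 18 pigmentation genes on the array. Tyrosinase (TYR), the first enzyme of melanin synthesis, ran from 5.26 to 7.59 log2 with a median of 6.01 in OCA2-low muscles, and from 5.00 to 7.02 with a median of 5.92 in OCA2-high muscles. The tyrosinase-related enzyme TYRP1 averaged 2.91 ± 0.10 log2 in OCA2-low and 2.93 ± 0.11 in OCA2-high muscles (SD, n = 13 and 46), near the lowest value of the data set, 2.39. The melanosomal transporter SLC45A2 averaged 5.82 log2 in OCA2-low and 5.83 in OCA2-high muscles, and the neural crest factor SOX10 averaged 6.11 in OCA2-low and 6.13 in OCA2-high muscles. All 4 lay under the filter of 6.27 log2 and were examined only in the fit without a filter, where 0 of 23998 probe sets had a limma adjusted p under 0.05 and 2131 had an unadjusted p under 0.05 (8.88%). Among the dim pigmentation genes in that fit, the agouti signal ASIP had a difference of -0.12 log2 and the melanosome motor MYO5A of 0.21.

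Genes of the lysosome, an organelle related to the melanosome, and the proton pump that acidifies both had small differences. Of 13 tested genes 4 lay above 0 and 9 below, with a median difference of -0.03 log2. None of the 13 had an unadjusted p under 0.05, beside 8.71% of all 4927 genes tested, so little can be read from that count. The values ranged from -0.16 log2 for the cholesterol transporter NPC1 to 0.07 for the membrane protein LAMP1. Among anion and organelle channels, the endolysosomal channel TPCN2 had a difference of 0.15 log2 and the chloride transporter CLCN3 of -0.02.

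Gene lists of muscle, metabolism and other cell types were described by their counts and medians. Over 31 lists, 251 of 420 genes were tested, 0 passed the adjusted threshold, and 18 had an unadjusted p under 0.05 (7.17%, against 8.71% of all 4927 genes). Contractile genes had differences of a few hundredths. The fast fibre list had a median difference of 0.01 log2 over 7 genes and the slow fibre list 0.02 over 9 genes. Among the slow fibre genes, the slow myosin heavy chain MYH7 averaged 14.31 ± 0.19 log2 in OCA2-low and 14.29 ± 0.15 in OCA2-high muscles (SD, n = 13 and 46), while the tropomyosin TPM3 had the widest difference, 0.30 log2 (unadjusted p = 0.00495, limma adjusted p = 0.404). Most of the contractile genes, MYH7 among them, lie near the top of the scale, where differences can be compressed. TPM3, by contrast, averaged 9.08 log2 in OCA2-low and 8.78 in OCA2-high muscles.

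Genes of energy metabolism had small differences. Glycolysis had a median difference of 0.01 log2 over 9 genes, the TCA cycle -0.01 over 11 and fatty acid oxidation 0.02 over 17. Oxidative phosphorylation had a median of -0.04 log2, with 5 of 19 genes above 0 and 14 below. None of the 19 had an unadjusted p under 0.05, beside 8.71% of all 4927 genes tested. With the decade of the pig number as a block the oxidative phosphorylation median was -0.000759 log2, with 8 of 19 genes above 0. ACADM, the medium-chain acyl-CoA dehydrogenase, averaged 12.67 ± 0.19 log2 in OCA2-low and 12.81 ± 0.16 in OCA2-high muscles (SD, n = 13 and 46), with a limma adjusted p of 0.488. The muscle atrophy ubiquitin ligase FBXO32 ran from 10.73 to 12.30 log2 with a median of 11.67 in OCA2-low muscles and had a median of 12.04 in OCA2-high muscles, a mean difference of -0.31 log2 (limma adjusted p = 0.638).

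The lists with the highest medians were those of the interferon response and of antigen presentation. Interferons induce chemokines, guanylate binding proteins and the machinery that loads peptides onto MHC molecules. Of 12 tested interferon response genes, 10 lay above 0, with a median of 0.24 log2, beside 0.00 over all tested probe sets. In limma, 6 higher and 1 lower had an unadjusted p under 0.05, beside 4.41% and 3.68% of all tested probe sets. None of the 12 passed the adjusted threshold. Genes of a list were measured in the same pigs, so such counts are not independent of each other. The chemokine CXCL9 ran from 5.87 to 10.85 log2 with a median of 8.75 in OCA2-low muscles, and from 4.98 to 10.91 with a median of 6.45 in OCA2-high muscles. The 2 ranges nearly coincide, and 9 of 13 OCA2-low muscles lay above the OCA2-high median. Its mean difference was 1.25 log2 (95% interval 0.23 to 2.28, limma adjusted p = 0.530). GBP1, a guanylate binding protein, averaged 9.53 ± 1.76 log2 in OCA2-low and 8.42 ± 1.43 in OCA2-high muscles (SD, n = 13 and 46), with a limma adjusted p of 0.533. The immunoproteasome subunit PSMB8 had a difference of 0.63 log2, the transcription factor IRF1 of 0.60 and the peptide transporter TAP1 of 0.38. The other tested interferon response genes had smaller differences, with IFIT3 at 0.26 log2, ISG15 at 0.22, IFIT1 at 0.15, MX1 at 0.14 and RSAD2 at 0.12. Below 0 lay IFIT2 at -0.22 log2 (unadjusted limma p = 0.0466) and IRF7 at -0.00419.

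Genes of MHC class I and II, which present peptides to T cells, all lay above 0, 11 of 11 with a median of 0.23 log2. The count was 10 of 11 after re-centring of the arrays, which moved the median of all probe sets to -0.02 log2, or after quantile normalisation. In limma, 4 of the 11 had an unadjusted p under 0.05, all higher, beside 4.41% of all tested probe sets, and 0 passed the adjusted threshold. SLA-2, a classical class I gene, averaged 11.47 ± 0.48 log2 in OCA2-low and 11.14 ± 0.42 in OCA2-high muscles (SD, n = 13 and 46), a difference of 0.33 log2, and the class I partner chain B2M had a difference of 0.04. The MHC genes are closely related to each other, and probe sets of one may take signal from another. Macrophage and leukocyte markers lay on the same side, 7 of 7 above 0 with a median of 0.18 log2. Of these 7, 1 had an unadjusted p under 0.05 in limma, beside the same 4.41%. Their mean level ran from 6.78 to 8.06 log2 in OCA2-low muscles and from 6.18 to 8.13 in OCA2-high muscles, and the T cell markers CD3E and CD2 lay under the filter. In a piece of whole muscle, more cells of a type and more RNA per cell cannot be told apart, and the part of leukocyte content in these values was not tested.

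Entering the pig numbers moved the interferon median further than the MHC median. With the decade of the pig number as a block, the interferon median was 0.07 log2 with 7 of 12 genes above 0, and the MHC median was 0.20 log2 with 11 of 11 above 0, while no gene of either list had an unadjusted p under 0.05. Over all tested probe sets 4.37% had an unadjusted p under 0.05 in that fit. Within pigs numbered 9 to 19, CXCL9 averaged 8.76 ± 1.63 log2 in 6 OCA2-low and 6.68 ± 1.10 in 4 OCA2-high muscles (SD). Within pigs numbered 64 to 72 it averaged 7.61 ± 2.29 log2 in 5 OCA2-low and 7.56 ± 2.59 in 3 OCA2-high muscles (SD). Among the other pigs CXCL9 averaged 9.19 ± 0.62 log2 in 2 OCA2-low and 7.14 ± 1.63 in 39 OCA2-high muscles (SD). The OCA2-low mean of CXCL9 was thus about 2 log2 above the OCA2-high mean in the first range and among the other pigs, and close to it at numbers 64 to 72. GBP1 averaged 10.33 ± 1.73 log2 in 6 OCA2-low and 8.19 ± 0.66 in 4 OCA2-high muscles numbered 9 to 19 (SD). At numbers 64 to 72 GBP1 averaged 8.53 ± 1.66 log2 in 5 OCA2-low and 8.89 ± 2.48 in 3 OCA2-high muscles (SD), and among the other pigs 9.61 ± 1.52 in 2 OCA2-low and 8.40 ± 1.43 in 39 OCA2-high muscles (SD). With the first 3 principal components in the fit the interferon median was 0.165 log2 with 11 of 12 genes above 0, the MHC median was 0.112 log2 with 10 of 11 above 0, and the macrophage median was -0.00436 log2 with 2 of 7 above 0. In that fit 1 interferon gene, 0 MHC genes and 0 macrophage genes had an unadjusted p under 0.05, beside 8.12% of all tested probe sets.

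Other cell types and early response genes showed smaller differences. Smooth muscle and pericyte markers had a median of 0.12 log2 over 6 genes, nerve and Schwann cell markers 0.12 over 3 and extracellular matrix genes 0.09, with 10 of 12 above 0. Immediate early genes, which respond to a stimulus before new protein is made, had a median of 0.10 log2, with 12 of 14 above 0. None of the 14 had an unadjusted p under 0.05, beside 8.71% of all 4927 genes tested. The immediate early median was 0.203 log2 with the decade of the pig number as a block (12 of 14 above 0). It was 0.0521 with the level of EIF1AY, a Y-linked gene with 2 separate levels, as a block (9 of 14 above 0). One of the immediate early genes, FOS, averaged 11.81 ± 0.78 log2 in OCA2-low and 11.45 ± 1.15 in OCA2-high muscles (SD, n = 13 and 46). Adipocyte markers had a median of -0.01 log2 over 5 genes, endothelial markers 0.03 over 7 and heat shock genes -0.03 over 16. The median over all 4927 genes tested was 0.00 log2.

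**Figure D4:**
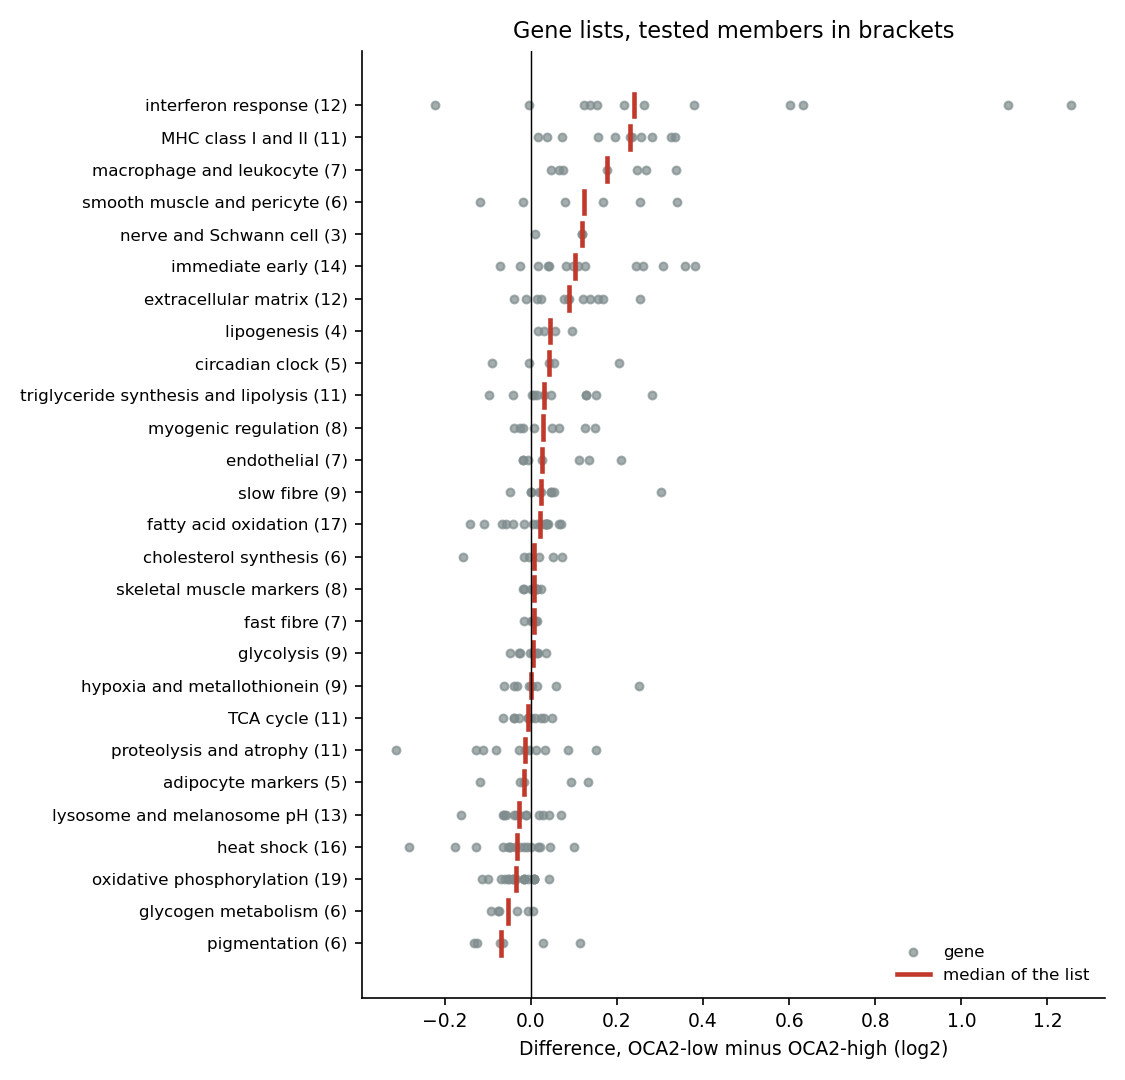
Difference OCA2-low minus OCA2-high in log2 (horizontal axis) of each tested gene (grey points) in the lists with at least 3 tested genes (rows, with the number of genes in brackets), and the median of each list (red bar). The interferon response and MHC lists have medians of 0.24 and 0.23 log2, most others lie close to 0, and no gene shown passed the adjusted threshold.

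EIF1AY, a translation factor gene on the Y chromosome, also had 2 separate levels in these pigs, with no value between 3.52 and 9.97 log2. Its 2 levels were found in OCA2-low and in OCA2-high muscles. Above the gap lay 4 of 13 OCA2-low muscles and 22 of 46 OCA2-high muscles (Fisher's exact test, two-sided p = 0.351). OCA2-low muscles above the gap had OCA2 values from 4.09 to 5.79 log2, against 3.88 to 5.15 in those below it. OCA2-high muscles had OCA2 means of 9.35 log2 above the EIF1AY gap and 9.26 below it. The 2 other genes with wide or separate levels in these muscles that were examined, PON3 and SPP1, had differences of -0.13 log2 (limma adjusted p = 0.988) and 0.84 log2 (limma adjusted p = 0.856).

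Within the OCA2-high muscles OCA2 still ran from 8.08 to 10.50 log2, and some genes varied with it. These OCA2 values were also not spread evenly over the pig numbers. OCA2-high pigs numbered 25 to 34 lay between 8.08 and 9.13 log2, and those numbered 56 to 60 between 9.89 and 10.50. Both ranges were picked after the values had been seen. Pig number was not entered in the slope fit, and its part in the slopes below was not tested. A slope on OCA2 over the 46 OCA2-high muscles was past an adjusted p of 0.05 in limma for 12 of 11999 probe sets (0.1%, with 8.78% at an unadjusted p under 0.05), all with positive slopes, and 0 of the 12 were among the probe sets called between OCA2-low and OCA2-high muscles. FBXW7, the substrate-binding subunit of a ubiquitin ligase, had a slope of 0.23 log2 per log2 of OCA2 (SE 0.04, limma adjusted p = 0.00231), and a second probe set of it was among the 12 as well. Pearson's r of FBXW7 with OCA2 was 0.688 and Spearman's rho 0.722 over 46 muscles, and r was 0.660 without the 2 muscles farthest from the OCA2 median. Over the 13 OCA2-low muscles r was 0.232. The means of FBXW7 were close between the groups, with 9.24 ± 0.23 log2 in OCA2-low and 9.21 ± 0.18 in OCA2-high muscles (SD, n = 13 and 46).

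The other genes most like OCA2 within the OCA2-high muscles, by the size of Pearson's r, were the splicing factor RBM39 with r = 0.586, the kinase MAPK3 with r = -0.573, LOC100154873 with r = 0.560 and the interferon receptor chain IFNAR2 with r = -0.533. Without the 2 muscles farthest from the OCA2 median, r over 44 muscles was 0.517 for RBM39, -0.471 for MAPK3, 0.440 for LOC100154873 and -0.580 for IFNAR2. RBM39 and LOC100154873 passed the slope test with a limma adjusted p of 0.0381 each, and MAPK3 and IFNAR2 did not, at 0.0702 and 0.112. These genes were picked for their r, which is a description of 46 muscles, and the array median itself had r = -0.336 with OCA2 in the same muscles (permutation p = 0.0215, adjusted p = 0.151 over 7 measures). The slope on OCA2 inside the OCA2-high muscles was 0.03 log2 for DYNC2LI1 (limma adjusted p = 0.911) and 0.11 for the unnamed probe set that was called (limma adjusted p = 0.493). In a family of 12 correlations of the 2 called probe sets and the 4 neighbours with OCA2 inside each group, by permutation tests, adjusted p-values lay between 0.285 and 0.913.

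**Figure D5:**
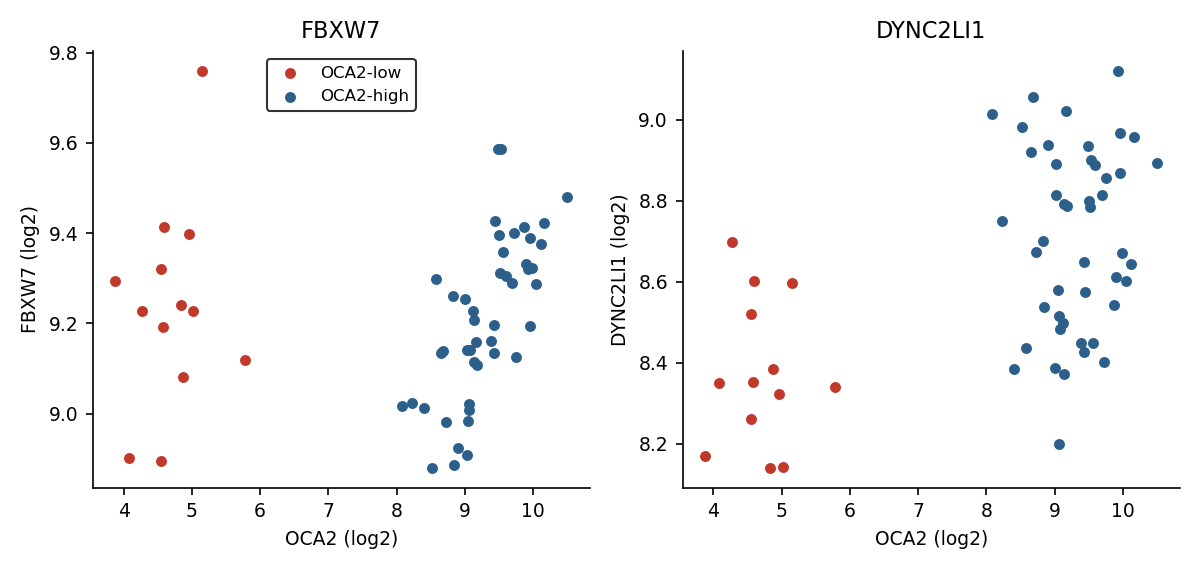
FBXW7 (left) and DYNC2LI1 (right) in log2 on the vertical axes against OCA2 in log2 on the horizontal axes, with 1 point per pig, OCA2-low in red and OCA2-high in blue. FBXW7 follows OCA2 within the OCA2-high pigs with r = 0.688 and spans similar values in OCA2-low pigs. DYNC2LI1 lies lower in OCA2-low pigs, with r = -0.03 to OCA2 inside OCA2-low and r = 0.08 inside OCA2-high.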

How the data were processed

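The authors deposited 1 normalised value per probe set and array, made with GCRMA per the submitters' processing notes (its version is not stated there). The deposited values, from 2.39 to 15.04, were read as log2 from their range, since no source used here names the log base. Differences of dim and of very bright probe sets can be compressed on such arrays, which was not tested here. No counts lie behind the values, so depth does not apply and the number of arrays sets the precision.

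OCA2-low and OCA2-high were divided at 7.0 on OCA2, and that probe set and 124 controls were left out. Probe sets whose mean over the arrays reached the median over all probe sets (6.27 log2) were tested with limma 3.58.1 (lmFit and eBayes, R 4.3.3), two-sided, with Benjamini-Hochberg adjustment over all 11999 and a threshold of 0.05. The probe set with the highest mean stood for a gene. A single symbol was available for 10099 probe sets, several symbols for 198 and no symbol for 13826, and 9989 symbols were updated through the Entrez identifier. Gene order came from the Sscrofa11.1 annotation. Simulated data had independent normal noise and 50 changed probe sets at each of 0.25, 0.5, 1 and 2 log2, all planted together. The fit recovered 29 at 0.25 log2, 47 at 0.5, 50 at 1 and 50 at 2, with 8 false calls. Planting so many changes at once eases the adjusted threshold, so these counts may overstate what the fit could find in these muscles. Array measures and correlations used 100000 permutations in Python 3.11.15 with numpy 2.4.6, pandas 2.3.3 and scipy 1.17.1, and figures used matplotlib 3.10.9.

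Named genes were those past the threshold, the smallest p-values up to 20 genes, the neighbours of OCA2 on the array, pigmentation genes, EIF1AY, the brightest 2 genes of each list and the 5 genes most like OCA2 within OCA2-high. Other list members named in the text, such as those with the widest difference, were chosen after their values were seen. The groups, lists and tests were chosen with earlier results of these data known. Alternatives covered the filter, normalisation, the moderated test, array weights, covariates, blocks and leaving out arrays.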

Additional observations from a re-analysis of the deposited data

How the results depend on the processing

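The number of probe sets that differed, 2 in all, 2 lower and 0 higher, moved with most settings, and 0 were higher under each setting other than leaving out 1 array. The count, with all called probe sets lower, was 0 without the filter (2131 at an unadjusted p under 0.05), 4 above the upper quartile of brightness, 5 after re-centring, 5 after quantile normalisation, 2 with an intensity trend, 6 with array weights, 3 with the first principal component, 1 without the 2 arrays nearest to 7.0, and 0 with EIF1AY as a covariate (935 at an unadjusted p under 0.05). Of settings chosen after seeing the data, it was 2 with 3 principal components (0 shared with the 2 probe sets reported), 0 with the side of the EIF1AY gap as a block (933 at an unadjusted p under 0.05), 0 within either side alone (408 above and 752 below), and 0 with the decade of the pig number as a block (524). A slope on OCA2 inside OCA2-high gave 12. Leaving out 1 array gave 0 to 6 in all, 0 to 5 lower and 0 to 1 higher. The cause was not tested.

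DYNC2LI1 was negative under all 14 settings that kept the contrast, from -0.36 to -0.17 log2, and past the threshold under 6, with limma adjusted p from 0.0113 to 1.000. The unnamed probe set ran from -0.30 to -0.22 log2 and passed under 7. The DYNC2LI1 call was lost (adjusted p up to 0.125) without any 1 of the OCA2-low pigs named in the report or the OCA2-high pigs 4, 20, 21, 25, 26, 28, 29, 30, 31, 33, 34, 35, 38, 40, 42, 43, 44, 46, 47, 49, 51, 54, 56, 57, 58 and 60; for the unnamed probe set the OCA2-high pigs were the same without 29, 33, 34 and 44. Per log2 of lower OCA2 inside OCA2-high, FBXW7 had -0.23 log2 and LOC100154873 -0.78, opposite in sign to their group differences, which did not pass. Among the other 94 tested named genes, 0 to 28 changed sign over 15 settings and 0 to 10 when 1 array was left out. No paired analysis was possible because the labels give 1 group of pigs.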

Other observations

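Pigs 32 and 36, the 2 OCA2-low pigs whose numbers lie outside 9 to 19 and 64 to 72, had CCL19 values of 7.43 and 9.02 log2, ACSL5 values of 6.96 and 7.39 log2 and TACC1 values of 5.50 and 5.73 log2, while the 39 OCA2-high pigs outside those ranges lay between 5.80 and 8.27 log2 for CCL19, between 5.60 and 6.96 for ACSL5 and between 7.06 and 8.50 for TACC1. The 2 animals were picked after their values had been seen, and nothing was tested.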
